A study of Mus musculus with 28 samples.

Results

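Liver libraries of mice given only the vehicle for 90 days were compared by genotype, 4 from macrophage-specific Pparg knockout mice (KO) and 4 from wild-type mice (WT). These 8 libraries are part of the 28 of the study and were chosen by their labels alone. All mice were C57BL/6 and labelled male, and every mouse in these groups was gavaged with 0.5% carboxymethyl cellulose (CMC), a thickening agent used as a carrier, so that no toxicant was given to either group. The other 20 libraries come from mice given di(2-ethylhexyl) phthalate (DEHP, a plasticizer) at 625 mg/kg for 90 days or from mice treated for 28 days. The comparison shows how whole liver differed between the genotypes without DEHP. The labels name neither the Cre driver of the deletion nor the mouse behind each library, so p-values measure the spread between libraries. In the gene tests (limma) that spread was estimated within the groups of all 28 libraries, not from these 8 alone.

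PPARgamma, the protein made from Pparg, is a nuclear receptor that binds fatty acids and their derivatives and switches on genes of lipid uptake and storage. In macrophages it is known for dampening inflammatory gene expression, and in liver the resident macrophages are the Kupffer cells, a minority among hepatocytes. Lyz2 encodes lysozyme M, an enzyme that cuts bacterial cell walls and is made by macrophages, monocytes and neutrophils. The Lyz2 locus is a common driver of Cre recombinase in mouse macrophages. In whole liver, fewer cells of a type and less RNA per cell cannot be told apart.

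The deposited values are FPKM, a fragment count divided by transcript length and by the library's mapped fragments. Summed FPKM ran from 606798 to 636077 in KO and from 574883 to 647703 in WT libraries, and 9947 to 10328 genes per library reached 1 FPKM. From the spacing of low values each library held roughly 10.7 to 13.3 M fragments (M, mega). The libraries resembled each other closely, with correlations of log2 values of 0.978 to 0.989 within a group and 0.976 to 0.988 between groups, as a description. One library stood apart. WT replicate 4 held 18250 FPKM summed over 33 exocrine pancreas markers, against 30.6 to 41.2 FPKM in the 4 KO libraries and 27.78 to 44.89 FPKM in the other WT libraries. Its digestive enzyme transcripts included Prss2 at 1231.78 FPKM and Pnlip at 1129.94 FPKM, both listed at 0 in the other 7 libraries. It also held the most adipocyte transcript, with Cfd at 19.89 FPKM against 0 to 0.53 FPKM in KO and 0.11 to 2.73 FPKM in the other WT libraries. The results that this library moved most are therefore given with and without it. Hepatocyte transcripts were high in all 8 libraries, with Alb (albumin) between 14339.92 and 29679.63 FPKM.

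Lyz2 was nearly absent from KO livers. Lyz2 (Entrez 17105, GRCm38 chromosome 10, 117277541 to 117282272) had 1.12, 1.83, 2.19 and 1.34 FPKM in KO livers, against 80.55, 79.37, 104.51 and 76.73 FPKM in WT livers. Every KO library lay far below every WT library. The KO mean was 1.62 ± 0.482 FPKM and the WT mean 85.3 ± 12.9 FPKM (SD, n = 4 each), so KO livers held 1.9% of the WT level. The log2 difference on the log2(FPKM + 1) scale was -5.05 (SE 0.249, 95% interval -5.56 to -4.54, adjusted p = 6.63e-13, limma over all genes tested). An exact two-sided permutation test of the 4 against 4 libraries gave p = 0.0286, the smallest this design allows. Without WT replicate 4 the difference was -5.10.

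The neighbouring gene Lyz1 is the closest relative of Lyz2 and is expressed mainly in Paneth cells of the gut. The coding sequences of both genes have 447 bases and differ at 22 of them, an identity of 95.1%, and 195 of 1214 windows of 50 bases in the Lyz1 transcript (16.1%) also occur in the Lyz2 transcript. Reads from such stretches can be assigned to either gene, so the Lyz1 values are uncertain. The stretch from coding base 37 to base 156 is shown for both genes because it holds 14 of the differences, which are in capitals. The sequences are the 5′ to 3′ transcript strand from the GENCODE annotation of GRCm38.
Lyz2: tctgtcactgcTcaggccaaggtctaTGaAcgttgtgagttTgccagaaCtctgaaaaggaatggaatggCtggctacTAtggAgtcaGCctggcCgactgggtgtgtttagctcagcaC
Lyz1: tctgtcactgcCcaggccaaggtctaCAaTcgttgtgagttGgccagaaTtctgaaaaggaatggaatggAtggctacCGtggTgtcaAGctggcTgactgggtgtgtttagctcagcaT

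Lyz1 had 0.74, 1.24, 1.17 and 0.54 FPKM in KO livers, against 2.48, 2.32, 2.48 and 2.53 FPKM in WT livers. The groups did not overlap, and all 4 WT values lay within a narrow band. The log2 difference was -0.86 (SE 0.189, 95% interval -1.25 to -0.47) and did not pass the adjusted threshold of 0.05 (adjusted p = 0.174, limma). KO livers held 37.6% of the WT level of Lyz1, against 1.9% for Lyz2. The other genes within 10 Mb of Lyz2 showed no such gap. Of these 62 tested genes 0 passed, at a median log2 difference of 0.05 and a range from -0.86 (Lyz1) to 0.42 (Rassf3).

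Pparg itself was low in whole liver and did not separate the genotypes. Pparg (Entrez 19016, chromosome 6, 115360879 to 115490404) had 2.28, 2.07, 1.51 and 3.58 FPKM in KO livers, against 5.2, 1.63, 1.51 and 5.01 FPKM in WT livers. WT replicates 1 and 4 were high, WT replicates 2 and 3 lay within the KO range, and the groups overlapped. The log2 difference was -0.27 (SE 0.247, 95% interval -0.78 to 0.24, adjusted p = 0.944, limma) with WT replicate 4 and -0.07 without it. Exact permutation of the libraries gave a two-sided p = 0.457. The level of Pparg within macrophages was not measured in these whole-liver libraries. Within 10 Mb of Pparg 0 of 112 tested genes passed, with log2 differences from -0.89 (Clstn3) to 0.52 (Rassf4).

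**Figure D1:**
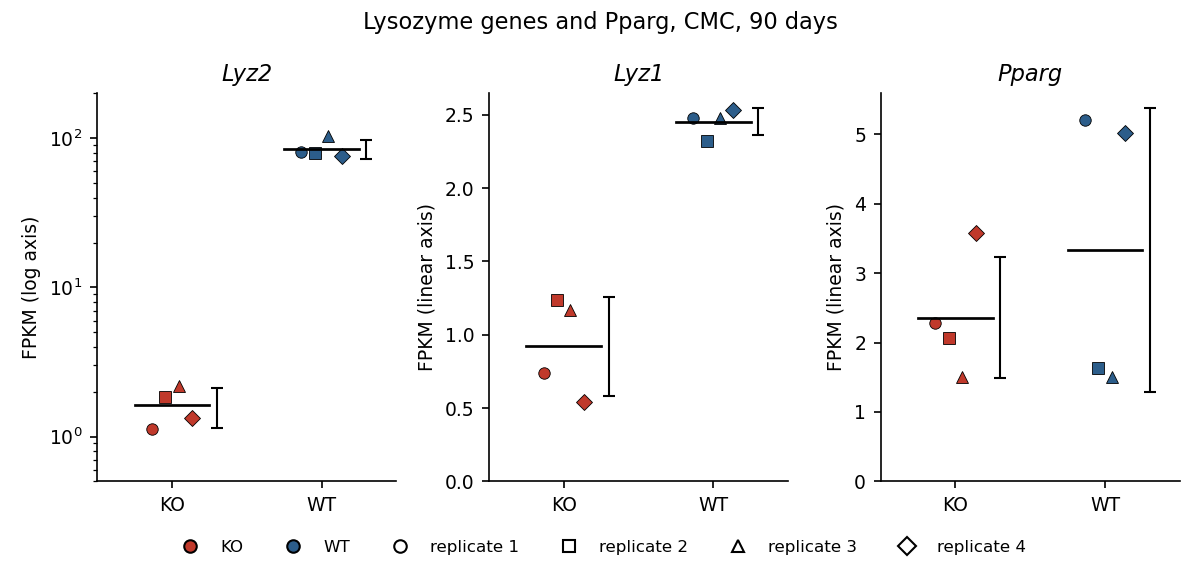
FPKM of Lyz2 (log axis), Lyz1 and Pparg (linear axes) in the 4 KO and 4 WT libraries. Points are libraries, long lines are means and brackets show 1 SD. Lyz2 lies between 1.12 and 2.19 FPKM in KO and between 76.73 and 104.51 FPKM in WT, while the Pparg values of both genotypes overlap.

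Across the transcriptome Lyz2 was the only gene to pass. Of 10352 genes tested, 1 fell (0.00966%) and 0 rose at a Benjamini-Hochberg adjusted p under 0.05 in limma. At an unadjusted p under 0.05, 720 genes (6.96%) differed, 459 higher in KO (4.43%) and 261 lower (2.52%). The 2 groups did not overlap in 388 genes (3.75%). Without WT replicate 4 Lyz2 was again the 1 gene to pass, and 906 genes (8.75%) had an unadjusted p under 0.05, 640 higher (6.18%) and 266 lower (2.57%). The count that passed was 2 without KO replicate 4 and 6 without WT replicate 1. The median 95% interval reached 0.26 log2 units to either side. In 10063 genes (97.2%) the whole interval lay within 1 log2 unit of 0 on the log2(FPKM + 1) scale. Only 35 genes (0.338%) had a fitted difference beyond 1 log2 unit on this scale, which understates fold changes of low genes. Differences smaller than these intervals were not detectable with 4 libraries a group, and larger ones could also miss the adjusted threshold.

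**Figure D2:**
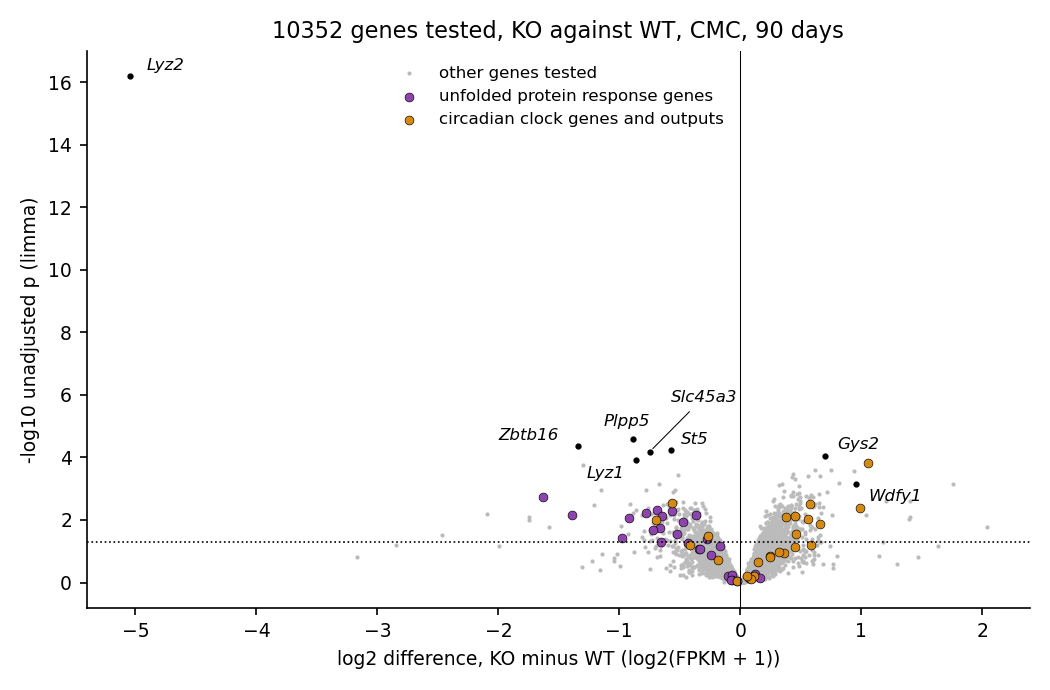
Log2 difference of each of the 10352 genes tested, KO minus WT (horizontal axis), against -log10 of the unadjusted limma p (vertical axis). The dotted line is the unadjusted threshold, purple points are unfolded protein response genes and orange points are circadian clock genes and outputs. Lyz2 at -5.05 stands alone at the upper left.

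The 5 genes of smallest p after Lyz2 did not pass. In each the 4 KO libraries lay wholly on one side of the 4 WT libraries, as in 3.75% of all genes. These 5 genes were picked by p in the same libraries, so their separation is no added support. Among them 4 lay lower and 1 lay higher in KO. Plpp5, which removes phosphate from lipid phosphates (Entrez 71910, chromosome 8, 25720043 to 25724887), had 3.47, 3.17, 5.49 and 4.92 FPKM in KO livers, against 8.64, 8.79, 8.58 and 8.23 FPKM in WT livers. Its log2 difference was -0.89 (SE 0.172, adjusted p = 0.131, limma). Zbtb16, a zinc finger transcription factor (Entrez 235320, chromosome 9, 48651797 to 48836225), had 3.41, 2.94, 2.35 and 3.77 FPKM in KO livers, against 8.25, 8.95, 9.52 and 10.87 FPKM in WT livers. Every KO value was under the lowest WT value, with a log2 difference of -1.34 (SE 0.271, adjusted p = 0.135, limma).

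St5, a regulator of small GTPases (Entrez 76954, chromosome 7, 109523911 to 109703718), had 3.88, 3.49, 3.9 and 4.56 FPKM in KO livers, against 4.84, 7.6, 7.9 and 5.59 FPKM in WT livers, a log2 difference of -0.58 (adjusted p = 0.135, limma). Slc45a3, a membrane protein of the solute carrier family (Entrez 212980, chromosome 1, 131962915 to 131982972), had 5.84, 4.34, 6.16 and 6.69 FPKM in KO livers, against 7.33, 9.03, 15 and 10.95 FPKM in WT livers, a log2 difference of -0.75 (adjusted p = 0.135, limma). For both genes the highest KO value lay close below the lowest WT value. Gys2, the glycogen synthase of liver (Entrez 232493, chromosome 6, 142422612 to 142473130), had 47.28, 52.36, 42.99 and 59.92 FPKM in KO livers, against 31.95, 36.43, 21.47 and 35.04 FPKM in WT livers. It had the highest FPKM of the 5 genes, and its log2 difference was 0.70 (SE 0.149, adjusted p = 0.15, limma).

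The same genotype difference can be read in the 20 other libraries, none of which enters the means above. Lyz2 fell in all 3 other sets, by 4.70 on the log2 scale under DEHP at 90 days, by 5.05 under CMC at 28 days and by 4.56 under DEHP at 28 days (adjusted p = 3.43e-12, 1.87e-11 and 1.93e-10, limma). Under DEHP at 90 days Zbtb16 fell by 1.40 (adjusted p = 0.019, limma), Slc45a3 fell by 0.72 (adjusted p = 0.0311) and Gys2 rose by 0.69 (adjusted p = 0.0311), sizes close to those under CMC. St5 missed the threshold there (-0.47, adjusted p = 0.0695), and Plpp5 was at -0.25 (adjusted p = 0.602). In that set KO replicates 1 to 3 and WT replicate 4 held pancreas transcripts. Their part in the DEHP differences given here and below was not tested. At 28 days none of these 5 passed: Zbtb16 was at 0.08 under CMC and -0.17 under DEHP, and Gys2 at 0.22 and 0.17. The 28-day libraries hold Xist and no Y-linked transcripts although they are labelled male, so age and sex cannot be told apart there. The 8 libraries described here had Xist at no more than 0.02 FPKM and Ddx3y between 10.32 and 12.96 FPKM, as male tissue has.

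Wdfy1, an endosomal adaptor protein, was singled out after its values were seen because it rose in the DEHP libraries. Wdfy1 (Entrez 69368, chromosome 1, 79702262 to 79776143) had 4.59, 4.76, 4.61 and 4.06 FPKM in KO livers, against 1.84, 2.3, 1.15 and 2.23 FPKM in WT livers. The groups were well apart, yet the log2 difference of 0.95 did not pass under CMC (adjusted p = 0.33, limma). It was 1.68 under DEHP at 90 days (adjusted p = 0.00224, limma). Lyz1 went the other way between the agents. Under DEHP at 90 days it had 2.46, 2.2, 3.66 and 5.8 FPKM in KO livers, against 2.65, 2.15, 3.01 and 1.5 FPKM in WT livers, so that the groups overlapped. KO replicates 1 to 3 and WT replicate 4 of those libraries held pancreas transcripts, whose part in these values was not tested. The genotype difference of Lyz1 under CMC less that under DEHP was -1.26 and did not pass (adjusted p = 0.264, limma). At 28 days Lyz1 fell in KO by 1.55 under CMC (adjusted p = 0.00108, limma) and by 1.24 under DEHP (adjusted p = 0.0338, limma).

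**Figure D3:**
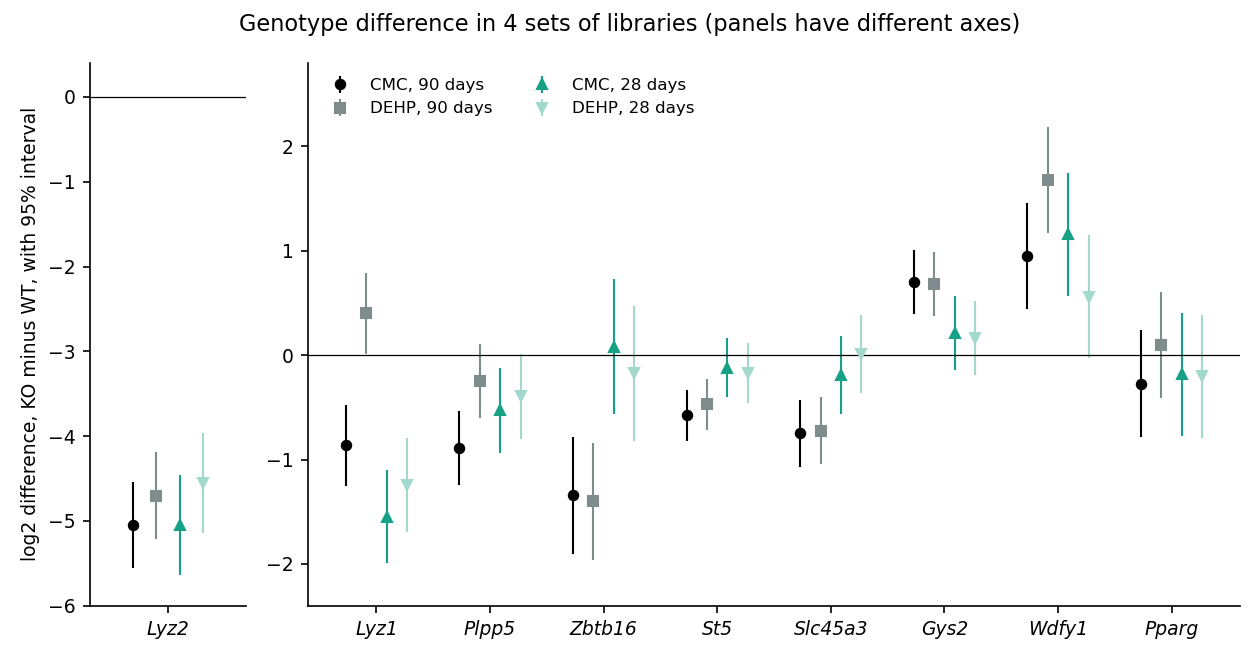
Log2 difference, KO minus WT, with its 95% interval, for Lyz2 (left panel) and 8 further genes (right panel, another axis) in the libraries of CMC at 90 days, DEHP at 90 days, CMC at 28 days and DEHP at 28 days. Lyz2 lies between -5.05 and -4.56 in all 4 sets. Zbtb16, St5, Slc45a3 and Gys2 lie on one side of 0 at 90 days and nearer to 0 at 28 days.

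The genotype difference under CMC was tested directly against those in other libraries. Against DEHP at 90 days 0 of 10352 genes passed in limma, and 558 (5.39%) had an unadjusted p under 0.05. Coq10a, a coenzyme Q binding protein of mitochondria, came nearest, at -0.31 under CMC and 0.47 under DEHP, a difference of -0.78 (SE 0.137, adjusted p = 0.0645, limma). The next in order of p were Sh3yl1 (-0.70), Lyz1 (-1.26), Sgf29 (-0.75) and Lrrfip2 (-0.54), at adjusted p from 0.264 to 0.448 (limma). What part the pancreas transcripts of the DEHP libraries had in these differences was not tested. Against CMC at 28 days 0 genes passed and 353 (3.41%) had an unadjusted p under 0.05. The 5 smallest p belonged to Fbxo36, Mapk1ip1, Tbc1d8, Megf9 and Fam98c, all at an adjusted p of 0.994 (limma). For Lyz2 the differences between sets were -0.34 (DEHP) and 0.00 (time), neither of which passed.

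Under DEHP at 90 days limma called 57 genes (0.551%), 40 higher and 17 lower in KO. KO replicates 1 to 3 and WT replicate 4 of that set held pancreas transcripts, whose part in these calls was not tested. Of these 57 genes 47 (82.5%) had the same sign under CMC, against 58.5% of all genes tested. With an unadjusted p under 0.05 under CMC, 22 had the same sign, Lyz2 among them, and 1 the opposite sign. Of all genes tested 6.96% had such a p. Both comparisons share 1 estimate of spread for each gene, so their p-values are not independent. At 28 days 2 genes were called under each agent (0.0193%), Lyz2 and Lyz1 in both.

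Kupffer cell and macrophage markers were present in both genotypes at overlapping levels. Of 28 markers 28 were tested and 0 passed, none even at an unadjusted p under 0.05, and their median log2 difference was 0.05, against 0.02 over all genes. Clec4f, a lectin made by Kupffer cells, had 50.25, 56.08, 40.34 and 37.8 FPKM in KO livers, against 40.45, 55.08, 46.95 and 37.51 FPKM in WT livers. Timd4, a receptor for dying cells on resident Kupffer cells, had 2.33, 3.18, 3.92 and 1.69 FPKM in KO livers, against 1.69, 2.63, 3.54 and 2.74 FPKM in WT livers. Values of both genes overlapped across the whole range. Cd5l (log2 difference 0.06), Vsig4 (0.14), Csf1r (0.10) and the complement genes C1qa (0.08), C1qb (0.13) and C1qc (0.13) lay on the same small scale. The median 95% interval of these markers reached 0.49 log2 units to either side, so that smaller differences in macrophage transcripts were not detectable. Larger ones could also miss the adjusted threshold. The summed marker level was 599.7 to 894.1 FPKM in KO and 653.2 to 795.5 FPKM in WT libraries.

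Other cell types gave no call either. Sinusoidal endothelial markers such as Stab2 and Clec4g had 0 of 27 tested members with an unadjusted p under 0.05, at a median of 0.00. Stellate cell and matrix genes had 0 of 24, at a median of -0.23 with 18 of 24 below 0 and Dcn (decorin) at -0.15. Without KO replicate 2, 5 of them were lower at that threshold, and over all single omissions 0 to 5 were. Interferon-stimulated genes had 0 of 42, at a median of 0.01. Of 25 monocyte and neutrophil markers 10 were tested, and Lyz1 was the 1 member with an unadjusted p under 0.05. Neutrophil granule transcripts varied within both genotypes: S100a8 had 19.25, 1.02, 4.44 and 4.04 FPKM in KO livers, against 21.98, 4.57, 1.45 and 3.64 FPKM in WT livers. Replicate 1 was the highest in both groups.

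**Figure D4:**
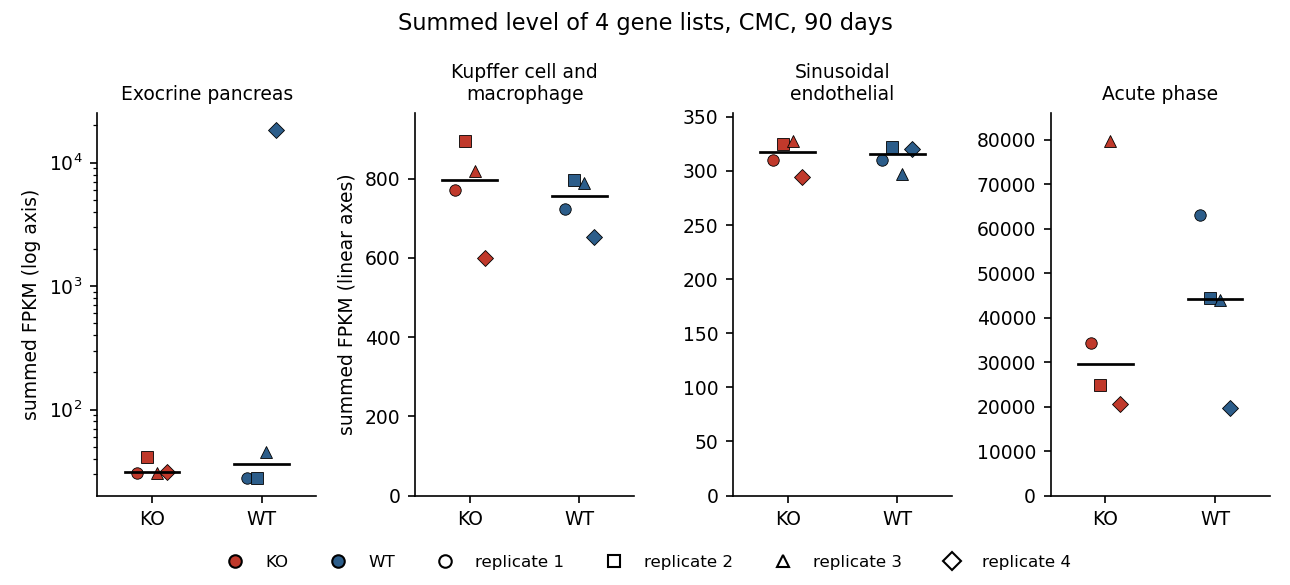
Summed FPKM of 4 gene lists in the 4 KO and 4 WT libraries, on a log axis for exocrine pancreas markers and on linear axes for the others. Points are libraries and lines are medians. WT replicate 4 stands at 18250 FPKM for pancreas markers and is low for acute phase genes, while Kupffer cell and endothelial marker sums overlap between the genotypes.

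Genes of the unfolded protein response lay below their WT level in KO as a group of small differences. This response raises chaperones and folding enzymes of the endoplasmic reticulum when unfolded proteins collect there, through the sensors ATF6, IRE1 and PERK. Of 28 listed genes 27 were tested, and 0 passed the adjusted threshold. At an unadjusted p under 0.05, 15 were lower in KO and 0 higher, where 2.52% of all genes were lower. Their median log2 difference was -0.43, against 0.02 over all genes, and 24 of 27 were below 0. In the DEHP libraries of 90 days the median of the same genes was -0.04. Of those libraries KO replicates 1 to 3, with 11500 to 48870 FPKM, and WT replicate 4, with 29360 FPKM, held pancreas transcripts, whose part in that median was not tested.

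Among the 15 lower members were chaperones and folding or degradation factors of the endoplasmic reticulum, and also Asns, which makes asparagine. Hspa5 (BiP), the main chaperone there, had 328.81, 182.26, 305.55 and 284.67 FPKM in KO livers, against 470.75, 330.72, 492.21 and 431.13 FPKM in WT livers, a log2 difference of -0.66 (unadjusted p = 0.0187, limma). Creld2, a secreted factor of this response, had 50.64, 11.12, 31.62 and 34.46 FPKM in KO livers, against 90.4, 55.99, 125.15 and 50.68 FPKM in WT livers, a log2 difference of -1.39. Its highest KO value lay just under its lowest WT value. Derl3, a channel component for the removal of misfolded proteins, had 6.55, 1.26, 2.09 and 4.35 FPKM in KO livers, against 11.04, 7.85, 31.53 and 6.49 FPKM in WT livers, and KO replicate 1 overlapped WT replicate 4.

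Hyou1 (-0.92), Sdf2l1 (-0.98), Pdia4 (-0.69), Hsp90b1 (-0.65), Manf (-0.66), Syvn1 (-0.72) and Dnajc3 (-0.57) lay on the same side. Pdia3 (-0.47) and Edem1 (-0.37) were lower too, without overlap between groups. The transcription factors Xbp1 (0.12), Atf4 (-0.07) and Ddit3 (-0.10) had overlapping groups and smaller differences. So did Herpud1 (0.08), Dnajb9 (-0.07), Trib3 (0.16) and Chac1 (-0.07). Asns, an ATF4 target, was at -0.78. Whether these members differ from the chaperones was not tested. KO replicate 2 was the lowest of the 8 libraries in Hspa5, Creld2 and Derl3, and WT replicate 3 the highest in all 3. Leaving out either one lowered the count of 15 to 8, and the count over all single omissions ran from 8 to 17, with list medians from -0.54 to -0.29. Without WT replicate 4 the count was 14, where 2.57% of all genes were lower. With all 8 libraries 8 members did not overlap between groups, against 3.75% of all genes.

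Some promoters of these genes hold a known sequence. The ER stress response element, CCAAT followed by 9 bases of any kind and CCACG, on either strand, binds NF-Y and ATF6, and was searched from 250 bases before to 50 bases after each RefSeq start site of GRCm38.p6. It occurred in 10 of the 25 members with a promoter sequence, against 37 of 27025 genes (0.137%) and 16 of 8349 tested genes (0.19%). The list was made of known genes of this response, so this share is no result of these libraries. The 10 members with the element had a median log2 difference of -0.61. Of them 6 were lower at an unadjusted p under 0.05, where 2.52% of all genes were. The 15 members without it in this window had a median of -0.24, and 7 of them were lower at that threshold. Whether members with and without the element differ was not tested. The fixed letters of the element are in capitals in the windows of the 3 members described above, each written 5′ to 3′ on the strand of its gene, chosen to show the element in both orientations.
Hspa5, chr2:34772010-34772058, plus strand: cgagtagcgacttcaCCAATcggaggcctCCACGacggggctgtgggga
Creld2, chr15:88819505-88819553, plus strand: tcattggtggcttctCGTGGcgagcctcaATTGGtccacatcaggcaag
Derl3, chr10:75893227-75893275, plus strand: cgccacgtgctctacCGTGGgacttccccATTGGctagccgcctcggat
In Creld2 and Derl3 the element reads in reverse complement, so its fixed letters appear as CGTGG and ATTGG. A match in this window is a description and was not tested as a site.

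**Figure D5:**
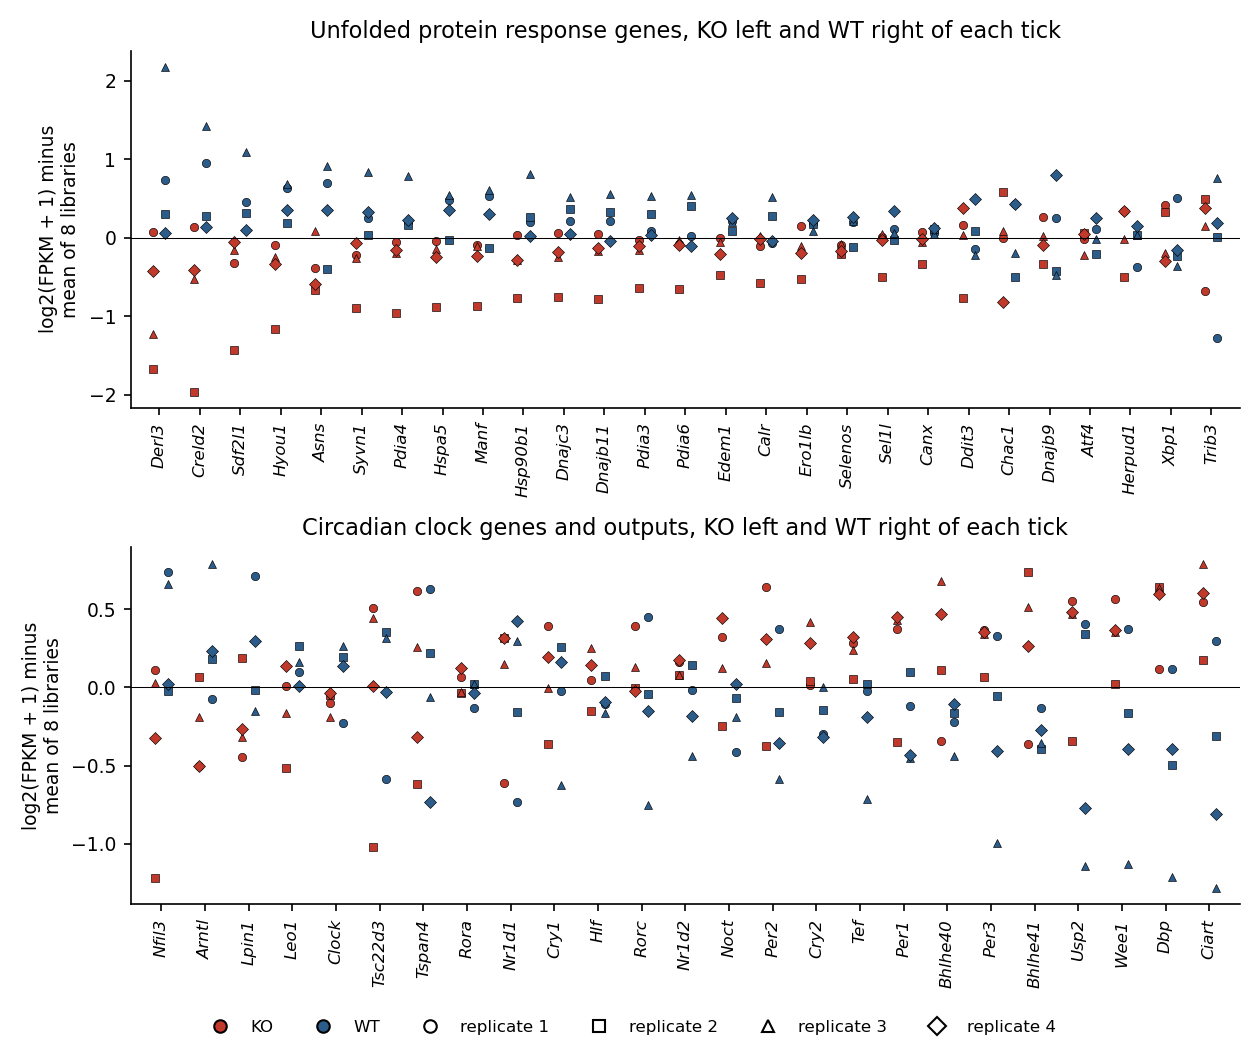
Log2(FPKM + 1) of each gene less its mean over the 8 libraries, for the 27 tested unfolded protein response genes (top) and the 25 tested circadian clock genes and outputs (bottom), ordered by genotype difference. Red points left of each tick are KO libraries, blue points right of it are WT libraries, and shapes are replicate numbers. KO replicate 2 (red squares) lies lowest and WT replicate 3 (blue triangles) highest for many of the chaperone genes.

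Circadian clock genes lay on both sides of their WT level, and none passed. In the clock, BMAL1 (gene Arntl) and CLOCK drive the Per and Cry genes and output factors such as Dbp through E-boxes, and PER and CRY proteins hold them back. Of 25 tested clock genes and outputs 0 passed, and 8 were higher (4.43% of all genes) and 3 lower (2.52% of all genes) in KO at an unadjusted p under 0.05. Ciart, a repressor of BMAL1 and CLOCK, had 6.03, 4.44, 7.31 and 6.32 FPKM in KO livers, against 4.91, 2.88, 0.98 and 1.75 FPKM in WT livers, a log2 difference of 1.05 (adjusted p = 0.198, limma). Dbp, a clock output factor, had 48.5, 70.24, 69.9 and 67.95 FPKM in KO livers, against 48.61, 31.4, 18.68 and 33.7 FPKM in WT livers, a log2 difference of 0.99. In both genes WT replicate 1 reached into the KO range and WT replicate 3 was the lowest library.

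Per3 (0.56), Tef (0.45), Cry2 (0.38), Wee1 (0.66), Bhlhe40 (0.46) and Bhlhe41 (0.58) were higher at an unadjusted p under 0.05, and of these Tef and Cry2 did not overlap between groups. Arntl had 0.71, 1.53, 1.12 and 0.71 FPKM in KO livers, against 1.3, 1.74, 3.19 and 1.84 FPKM in WT livers, a log2 difference of -0.56 in the opposite direction to Dbp. Nfil3 (-0.70), which opposes Dbp at its target sites, and Leo1 (-0.27) were lower as well, while Clock (-0.19) and Nr1d1 (0.09) had larger p. Leaving out WT replicate 3 lowered the count of higher genes to 4, and leaving out KO replicate 2 raised it to 12. Among the 25 tested genes 2 passed as higher and 3 as lower in KO under DEHP at 90 days, where 0.551% of all genes passed. The higher ones were Per3 (0.89, adjusted p = 0.0397, limma) and Tef (0.67, adjusted p = 0.0449, limma). Arntl (-0.86, adjusted p = 0.021, limma) was 1 of the lower ones. The hour at which livers were taken is not in the labels, and its part in these values was not tested.

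The E-box CACGTG occurred in the promoters of 6 of 21 clock members with a sequence, against 8.09% of all genes and 12.26% of tested genes on either strand. Ciart holds 3 of them, shown in capitals in its promoter on the minus strand because it had the largest difference of the list.
Ciart, chr3:95882252-95882359, minus strand: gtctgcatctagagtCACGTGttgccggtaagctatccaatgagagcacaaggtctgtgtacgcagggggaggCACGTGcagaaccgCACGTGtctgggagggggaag
The D-box TTATGTAA, to which Dbp, Tef and Nfil3 proteins bind, was found in 1 of the 21, Per3, against 1.11% of all genes. The list was made of known clock genes and outputs, so neither share is a result of these libraries. No match was tested as a site.

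Among genes of glucose use and fat synthesis, Pklr lay higher in every KO library than in any WT library. Pklr, the pyruvate kinase of liver, had 83.5, 112.78, 100.72 and 79.32 FPKM in KO livers, against 72.85, 45.14, 27.91 and 57.72 FPKM in WT livers, a log2 difference of 0.94 that did not pass. Without WT replicate 1 it did pass (adjusted p = 0.0487, limma). Of 29 tested genes of fatty acid and triglyceride synthesis, 4 were higher and 0 lower at an unadjusted p under 0.05, against 4.43% and 2.52% of all genes: Pklr, Fasn (0.65), Srebf1 (0.51) and Mid1ip1 (0.52). Pklr was the 1 member of the 29 without overlap between groups, against 3.75% of all genes. The list's median log2 difference was 0.18, and under DEHP at 90 days it was 0.05. There 0 members passed as higher and 2 passed as lower in KO (limma), where 0.551% of all genes passed. Under CMC the count of higher members at an unadjusted p under 0.05 changed with single omissions. It was 1 without KO replicate 4, 2 without WT replicate 2 or WT replicate 3, and 7 without WT replicate 1. The count of lower members was 2 without KO replicate 4, and 1 without KO replicate 2, WT replicate 2 or WT replicate 3. Slc2a2, the glucose transporter of hepatocytes, was at 0.65 and Khk, which phosphorylates fructose, at 0.41. Of 28 tested genes of gluconeogenesis and insulin response 0 passed, with 5 higher and 1 lower (Pfkfb1, -0.33) at an unadjusted p under 0.05. Of these 28 genes 16 were below 0, at a median of -0.04.

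Of 14 tested genes of lipid uptake and storage that PPARgamma controls, only Cd36 had groups without overlap. Such separation was seen in 3.75% of all genes. Cd36, a fatty acid uptake receptor and a PPARgamma target, had 4.79, 7.07, 4.94 and 5.65 FPKM in KO livers, against 8.27, 7.82, 8.13 and 16.66 FPKM in WT livers. All 4 KO values lay below the WT values and WT replicate 4 was the highest. The log2 difference was -0.71 with that library and -0.47 without it (unadjusted p = 0.0059 and 0.0472, limma). Of 14 tested members 0 passed, 1 was higher (4.43% of all genes) and 1 lower (2.52% of all genes) at an unadjusted p under 0.05. The higher one was Cideb (0.19), a lipid droplet protein, and the lower one Cd36. Over single omissions 0 to 1 members were higher and 1 to 3 lower at that threshold. The median was -0.20, or -0.06 without WT replicate 4.

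Fatty acid oxidation and PPARalpha target genes had a median of 0.00 over 48 tested members. Cyp4a10, a fatty acid hydroxylase and sensitive PPARalpha target, had 3.68, 1.99, 0.47 and 15.07 FPKM in KO livers, against 2.44, 38.73, 16.14 and 45.61 FPKM in WT livers. Cyp4a genes have near-identical copies, so the value is uncertain. Its groups overlapped widely, and WT replicates 2 and 4 held the highest levels. The log2 difference of -2.09 did not pass (adjusted p = 0.469, limma), and Cyp4a14 (-1.58) and Vnn1 (-0.98) were likewise highest in WT replicate 4. Without that library Cyp4a10 was at -1.64 and Cyp4a14 at -0.97.

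Urea cycle enzymes and enzymes that degrade amino acids had 9 of 48 members higher and 0 lower at an unadjusted p under 0.05, against 4.43% and 2.52% of all genes. Ass1, a urea cycle enzyme, had 1854.43, 1851.78, 2066.14 and 1999.82 FPKM in KO livers, against 1598.84, 1205.33, 1447.94 and 1559.08 FPKM in WT livers, a log2 difference of 0.43 without overlap. The list's median was 0.09, so most of its members differed by little. The count was 16 without WT replicate 4 (6.18% of all genes), 2 without WT replicate 2, 3 without KO replicate 4, 5 without WT replicate 3 and 6 without KO replicate 3. Subunits of oxidative phosphorylation lay just above their WT level, 73 of 74 above 0 against 57% of all genes, at a median of 0.09. Under quantile normalization the list's median was 0.05. Of these 74 subunits 0 passed, and 5 were higher at an unadjusted p under 0.05, against 4.43% of all genes. Over single omissions that count ran from 1 to 8 (1 without KO replicate 4 or WT replicate 3, and 8 without WT replicate 1 or WT replicate 4).

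The level of acute phase genes turned on single libraries. These genes encode plasma proteins that the liver raises in inflammation. Of 31 tested, 0 passed, and 2 were lower at an unadjusted p under 0.05 (2.52% of all genes), at a median log2 difference of -0.25. Without WT replicate 4, 15 were lower (2.57% of all genes) and the median was -0.63, against 4 without KO replicate 1 or KO replicate 3, 1 without WT replicate 1 or WT replicate 3, and 0 without KO replicate 2, KO replicate 4 or WT replicate 2. Saa1, serum amyloid A, had 2779.89, 1403.17, 19710.14 and 198.94 FPKM in KO livers, against 12339.62, 4216.62, 4556.62 and 63.07 FPKM in WT livers. KO replicate 3 was the highest library and WT replicate 4 the lowest, and the groups overlapped over most of their range. Its log2 difference was 0.00 with WT replicate 4 and -1.64 without it, and passed in neither. Saa1 has a near-identical neighbour, Saa2, between which reads can be split.

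The metallothionein genes Mt1 and Mt2, which bind zinc and copper, followed a like split. Mt2 had 465.9, 2.93, 217.04 and 8.0 FPKM in KO livers, against 1053.25, 782.78, 633.97 and 17.47 FPKM in WT livers. KO replicates 2 and 4 and WT replicate 4 were low, and those 3 libraries also stood together on the first principal component, which held 26% of the variance of the 8 libraries. The log2 difference of -2.85 did not pass (adjusted p = 0.743, limma), and under DEHP at 90 days it was 2.22. Without WT replicate 4 it was -4.21 with no overlap between groups, and did not pass either (adjusted p = 0.376, limma). Egr1, an immediate early gene, was high in some KO libraries. It had 54.13, 10.58, 1.64 and 33.07 FPKM in KO livers, against 2.14, 1.88, 5.69 and 2.33 FPKM in WT livers, a log2 difference of 2.04 (adjusted p = 0.563, limma). Of 18 tested immediate early genes 9 were above 0 and 9 below, at a median of 0.00. None passed, and Egr1 and Junb (0.66) were the 2 higher ones at an unadjusted p under 0.05.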

How the data were processed

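RNA from whole liver was sequenced in 28 libraries, grouped by genotype, agent and time as the labels give them. The authors deposited 1 table of FPKM per gene and library. Per the submitters' processing notes Cuffdiff and the builds mm10 and GRCm38 were used. No aligner is named in these notes (not given in the sources used here). Per the labels' protocols RNA was taken up in Trizol and libraries were made with a TruSeq kit. The table holds 17792 genes, of which 17743 (99.7%) were matched by Entrez number to RefSeq genes of GRCm38.p6 for positions, and 33 have no usable symbol.

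A pseudocount of 1 was added to FPKM before taking log2. A gene was tested where 3 or more of the 8 libraries reached 1 FPKM. limma 3.58.1 in R 4.3.3 fitted 8 group means to all 28 libraries with a variance trend (20 residual and 4.7 prior degrees of freedom), two-sided, with Benjamini-Hochberg adjustment over all genes tested and a threshold of 0.05. A fold change on this scale understates changes of low genes. A value of 0 may be a failed estimate. Read totals are unknown. Depth was estimated from the steps between the lowest FPKM of 1886 genes that have a single short transcript. Of these values 70.8% to 77.5% lay within 0.15 of a whole step when 150 bases were taken off each transcript length. The estimate is too coarse for counting intervals.

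The members, the 44 gene lists and the tests were chosen with earlier results of these data known. The text names Pparg and Lyz2, called genes, the 5 smallest p, the 5 smallest p of each interaction and members of described lists; Wdfy1 was added after its values were seen. Lists are described by counts and medians, with no list test. Alternatives were a pseudocount of 0.1, no filter, a filter of 5 FPKM, upper quartile and quantile scaling, library weights, fits of fewer libraries, the replicate number as a block, a pancreas score as a covariate and leaving out libraries. The fit was tested on simulated data. Python 3.11.15 with pandas 2.3.3, numpy 2.4.6 and matplotlib 3.10.9 were used for reading and plotting.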

Additional observations from a re-analysis of the deposited data

Results flagged for a closer look

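Of 122 groups of 4 libraries examined, 8 held a library far from the other 3, where chance gives about 1 in 20. Of these, 4 concern WT replicate 4. It had 18250 FPKM summed over exocrine pancreas markers, 0.07 FPKM over endocrine pancreas markers, 10.88 FPKM over B cell markers and 3635 FPKM over bile acid genes. WT replicate 3 had Lyz2 at 104.51 FPKM. KO replicate 2 had 41.2 FPKM over exocrine pancreas markers, WT replicate 2 had 4386 FPKM over gluconeogenesis and insulin response genes, and WT replicate 1 had 2276 FPKM over heat shock genes. No interaction of genotype with agent or time passed.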

How the results depend on the processing

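Lyz2 passed under every alternative run, at log2 differences from -5.67 (pseudocount of 0.1) to -4.95 (without WT replicate 3). The count of called genes, 1 in the report, was 2 under quantile normalization (Gna14 added), 2 in a fit of the 8 libraries (Zbtb16, adjusted p = 0.00505), 3 in a fit of the 16 libraries of 90 days (Wdfy1 and Plpp5), 3 with the pancreas score (9030619P08Rik and Lyz1) and 3 without the libraries with pancreas transcripts (9030619P08Rik and Arrdc4). Over single omissions it ran from 1 to 6: without KO replicate 4 it was 2 (Gm9199), and without WT replicate 1 it was 6 (Pklr, Clpx, Ciart, Slc45a3 and St5). The cause was not tested. With the replicate number as a block the 8 libraries gave 2 calls (Zbtb16, adjusted p = 0.0377). The residuals of same-numbered libraries correlated at 0.224, -0.135, 0.265 and 0.325, and all but replicate 2 correlated best with their own number. The labels tie no number to an animal or batch, and the libraries were treated as unpaired. Under DEHP at 90 days 33 genes were called with no filter, where more genes were tested, against 57, and under DEHP at 28 days 1 with quantile normalization. The interaction with DEHP ran from 0 to 1 calls (Coq10a, without WT CMC replicate 1 or WT DEHP replicate 3) and that with time from 0 to 2 (Pttg1 and Nnt, without KO CMC replicate 7 of 28 days). No called value changed sign. Some list medians near 0 did: major urinary protein genes, at 0.15 in the report, were at -0.14 without WT replicate 4, CAR and PXR genes at 0.06 against -0.09, and sterol synthesis genes at 0.06 without WT replicate 3 against -0.09. The median over all genes never moved by 0.1. Of the list medians 750 moved by less than their spread and 10 by more.

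Whole liver, 4 libraries a group, an unknown read total and 1 library with pancreas transcripts limit these results. The mice behind the libraries, the hour of sampling and the Cre driver are not in the labels. Small differences in cell types that make up little of the liver would not be seen at this depth.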

Other observations

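Male-biased liver genes depend on the pulses of growth hormone in male mice. Of 41 tested 0 passed, and 4 were higher (4.43% of all genes) and 2 lower (2.52% of all genes) at an unadjusted p under 0.05, at a median log2 difference of 0.12. The lower ones were Ugt2b37 (-0.74) and Ces4a (-0.44). Mup20, a pheromone-binding urinary protein, had 13598.91, 12643.11, 11387.82 and 10929.6 FPKM in KO livers, against 8278.67, 11035, 6880.46 and 6647.66 FPKM in WT livers, values that reads shared among Mup genes make uncertain. Cyp2d9, a male-biased cytochrome P450, was at 0.42 and Sult5a1, a sulfotransferase, at 0.59. Of 13 tested female-biased genes 4 were lower (2.52% of all genes) and 0 higher, with Cyp2c40 at -0.70. These counts ran from 2 to 5 for the higher male-biased genes and from 2 to 6 for the lower female-biased genes over single omissions. The lowest value of the female-biased list, -2.09, was that of Cyp4a10, described above. WT replicate 4 had the highest summed female-biased level of the 8 libraries (225.9 FPKM) and the lowest male-biased level (43900 FPKM).

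Among genes known to vary between C57BL/6 substrains, 6 were tested, with Wdfy1 at 0.95 and Nlrp12, a sensor protein of myeloid cells, at -0.67. Nlrp12 had 4.42, 4.72, 4.2 and 4.88 FPKM in KO livers, against 5.07, 9.51, 9.69 and 7.82 FPKM in WT livers, without overlap. Nnt, whose transcript is lost in part in C57BL/6J mice, had 7.67 to 9.94 FPKM in KO livers, against 8.66 to 10.89 FPKM in WT livers, and a log2 difference of -0.12. The substrain is not in the labels, and its part in these values was not tested.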
